A study of Mus musculus with 54 samples.

Results

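Potassium channel genes were taken as the probes of the array whose platform symbol starts with Kcn and which were detected, with a detection p of 0.02 or less, on every array of at least 1 group. The rule gave 49 genes (62 probes), of 80 Kcn genes (119 probes) on the platform and of 16593 gene symbols (25697 probes) in all. In the dentate gyrus (DG) 56 probes passed the rule, in the lateral entorhinal cortex (LEC) 56 passed, and 50 passed in both. Of the members, 36 were detected on all 54 arrays. Another 57 Kcn probes fell below the rule, 44 of them detected on no array, so that 31 Kcn genes had no member probe. Just inside the rule were Kcnrg, detected on 9 DG arrays and on 0 LEC arrays, and Kcnh5, detected on 6 LEC arrays and on 0 DG arrays. Just outside it were a second Kcnh1 probe, ILMN_1244779, detected on 11 arrays, and Kcna5, Kcne1 and a second Kcnrg probe, each detected on 6 arrays.

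Potassium channels let potassium leave the cell and so set the resting potential, shape and end the action potential, and space out firing. Voltage-gated pores of the Shaker to Shal families and the EAG, ERG and M-current families open on depolarization, calcium- and sodium-activated channels open when those ions enter, inward rectifiers and 2-pore-domain leak channels act near rest, and auxiliary subunits change how many channels reach the membrane and how fast they inactivate. Granule neurons of the DG fire sparsely and have a very negative resting potential, and their main cortical input comes from the entorhinal cortex through the perforant path. In dendrites of hippocampal neurons the fast inactivating A-type current is carried largely by the Shal pore encoded by Kcnd2, which is bound by the calcium sensors of the Kcnip family.

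RNA came from bulk DG and LEC of individually housed male C57BL/6J mice of one genotype, about a month old when treatment began. Mice were therefore older at tissue collection the longer the treatment lasted. By the methods all were injected intraperitoneally every day. The paper describes no 28-day groups, so that their injections, age and housing are assumed here to match. AICAR (5-aminoimidazole-4-carboxamide ribofuranoside, an agonist of the energy sensor AMP-activated protein kinase) was given at 500 mg/kg in saline for 7 days (ACR7) or 14 days (ACR14). Runners had free access to a wheel for 7 days (RUN7), 14 days (RUN14) or 28 days (RUN28). Sedentary controls were kept for the same times (CTR7, CTR14a, CTR14b, CTR28). Runners and controls of days 7 and 14 received saline, which is assumed for those of day 28. CTR14a belongs to the set of RUN14 and CTR14b to the set of ACR14, while ACR7 and RUN7 share CTR7. Each group had 3 arrays in each region, apart from DG CTR14a with 2 and LEC CTR28 with 4, and 21 of 33 mice, going by the number in their titles, gave both regions. By the methods the purest RNA samples of each group were put on arrays, so that the p-values below measure the spread between those arrays.

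On each array 11495 to 13219 probes were detected, and between 46 and 58 of the 62 members. Granule neuron markers followed the regional labels. Both granule neuron genes that could be tested, Prox1 and C1ql2, were higher in the DG on all 3 of their probes, with array means over those probes of 8.86 to 11.26 in the DG and 6.40 to 7.41 in the LEC (log2 intensity on a common scale). The LEC samples also held more of several other cell types' RNA. Striatal markers were lower in the DG on 7 of 7 probes and oligodendrocyte markers on 11 of 13. Microglia markers were lower on 6 of 7 and interneuron markers on 5 of 7. Of all probes 31.7% were lower in the DG and 37% higher, so that the cortical layer markers, lower on 3 of 7, lay near that share. Choroid plexus markers were higher in the DG on 3 of 4 probes, with array means over the 4 probes of 6.55 to 12.43 in the DG and 6.16 to 7.58 in the LEC. CA pyramidal means ran from 8.657 to 10.29 in the DG (median 9.645) and from 8.895 to 9.506 in the LEC (median 9.189). Astrocyte medians were 9.526 in the DG and 9.393 in the LEC, and endothelial and pericyte medians 7.768 and 7.555, with overlapping ranges. In bulk tissue, fewer cells of a type and less RNA per cell cannot be told apart, and the part of these markers in the results below was not tested.

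Promoters are shown for 4 members whose transcripts carry the differences below: the pore Kcnd2 and its partner Kcnip2, the EAG channel Kcnh1, and the silent subunit Kcnf1. Each run spans 250 bases before to 50 bases after the RefSeq start on GRCm38.p6, at chr6:21215096-21215395 (plus strand) for Kcnd2, chr19:45816014-45816313 (minus strand) for Kcnip2, chr1:192190527-192190826 (plus strand) for Kcnh1 and chr12:17176839-17177138 (minus strand) for Kcnf1. Capitals mark GGGCGG, the GC box, on either strand.
Kcnd2: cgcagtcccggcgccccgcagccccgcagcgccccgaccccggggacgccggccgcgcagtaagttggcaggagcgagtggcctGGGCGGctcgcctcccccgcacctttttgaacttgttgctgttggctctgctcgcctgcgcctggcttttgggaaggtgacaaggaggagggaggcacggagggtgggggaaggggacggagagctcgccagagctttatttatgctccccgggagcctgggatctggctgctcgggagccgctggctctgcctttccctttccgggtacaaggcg
Kcnip2: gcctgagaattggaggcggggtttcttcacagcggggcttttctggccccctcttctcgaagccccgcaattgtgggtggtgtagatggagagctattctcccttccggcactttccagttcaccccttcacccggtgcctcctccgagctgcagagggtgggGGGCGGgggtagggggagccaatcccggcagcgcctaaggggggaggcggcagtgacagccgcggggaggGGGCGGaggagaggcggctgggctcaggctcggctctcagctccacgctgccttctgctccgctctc
Kcnh1: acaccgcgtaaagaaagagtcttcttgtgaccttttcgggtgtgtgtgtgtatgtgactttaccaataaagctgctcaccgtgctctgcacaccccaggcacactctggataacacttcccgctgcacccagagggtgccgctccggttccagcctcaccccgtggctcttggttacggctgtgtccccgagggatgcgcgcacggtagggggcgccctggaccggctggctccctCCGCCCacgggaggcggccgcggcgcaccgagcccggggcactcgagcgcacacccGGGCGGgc
Kcnf1: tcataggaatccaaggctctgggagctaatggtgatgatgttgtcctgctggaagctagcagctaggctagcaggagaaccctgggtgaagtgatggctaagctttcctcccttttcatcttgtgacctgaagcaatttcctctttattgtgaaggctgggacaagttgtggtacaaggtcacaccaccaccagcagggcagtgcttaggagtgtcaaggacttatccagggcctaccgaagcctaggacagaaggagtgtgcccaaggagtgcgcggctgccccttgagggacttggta
The first 3 promoters were rich in CpG, with 26 CpG in Kcnd2, 18 in Kcnip2 and 27 in Kcnh1, whereas Kcnf1 had 3. The GC box stood 1 time in Kcnd2, 2 times in Kcnip2, 2 times in Kcnh1 and 0 times in Kcnf1. RefSeq promoters were found for 38 of the 49 genes, 57 promoters in all. GGGCGG was present in 49.1% of them and in 35.7% of all 32851 promoters of that length. TATAAA, searched on both strands, stood in 5.26% of the potassium channel promoters and in 13.6% of all promoters, CACGTG in 5.26% and 7.15%, TGACG in 17.5% and 20.8%, and TGACGTCA in 0% and 1.79%. The last of these contains TGACG. The median promoter held 9 CpG among potassium channel genes (quartiles 5 and 20) and 7 among all genes (quartiles 3 and 20).

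The regional comparison asked which potassium channel transcripts differed between DG and LEC over all 9 groups. The DG had more Kcnd2, Kcna1, Kcnab1, Kcnip2 and Kcnj6, and less Kcnf1, Kcnt1, Kcnv1, Kcnj12 and Kcnip3. Of the 62 probes, 50 (39 genes) passed an adjusted p under 0.05 in limma, 21 probes higher and 29 lower in the DG, in a fit in which 68.8% of all 13067 probes passed (37% higher and 31.7% lower). The calls of Kcnrg (higher) and Kcnh5 (lower) are counted here, although neither was detected in its dimmer region and the bright side was not above the detection floor of the dim side. Kcnt1, Kcnj12, Kcnk3, Kcnh5 and Kcnk4 probe ILMN_1226370 passed the detection rule only in the LEC. Kcnrg, Kcng4, Kcnc1 probe ILMN_1239595 and Kcnj6 probe ILMN_3038066 passed it only in the DG. The rule admitted these through the region where they are higher, so their calls are no independent support for a regional difference. The median difference was -0.09 over the members and 0.02 over all probes. Most differences were modest. Only 4 called probes exceeded 2-fold, 17 of the 21 higher probes were higher in the DG at all 9 groups, and 19 of the 29 lower probes were lower in the DG at all 9. Matching counts over all called probes were not made, so these describe the members and do not set them apart. All levels and differences in this comparison are on a scale common to both regions, and levels of different probes are not comparable with each other.

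**Figure D1:**
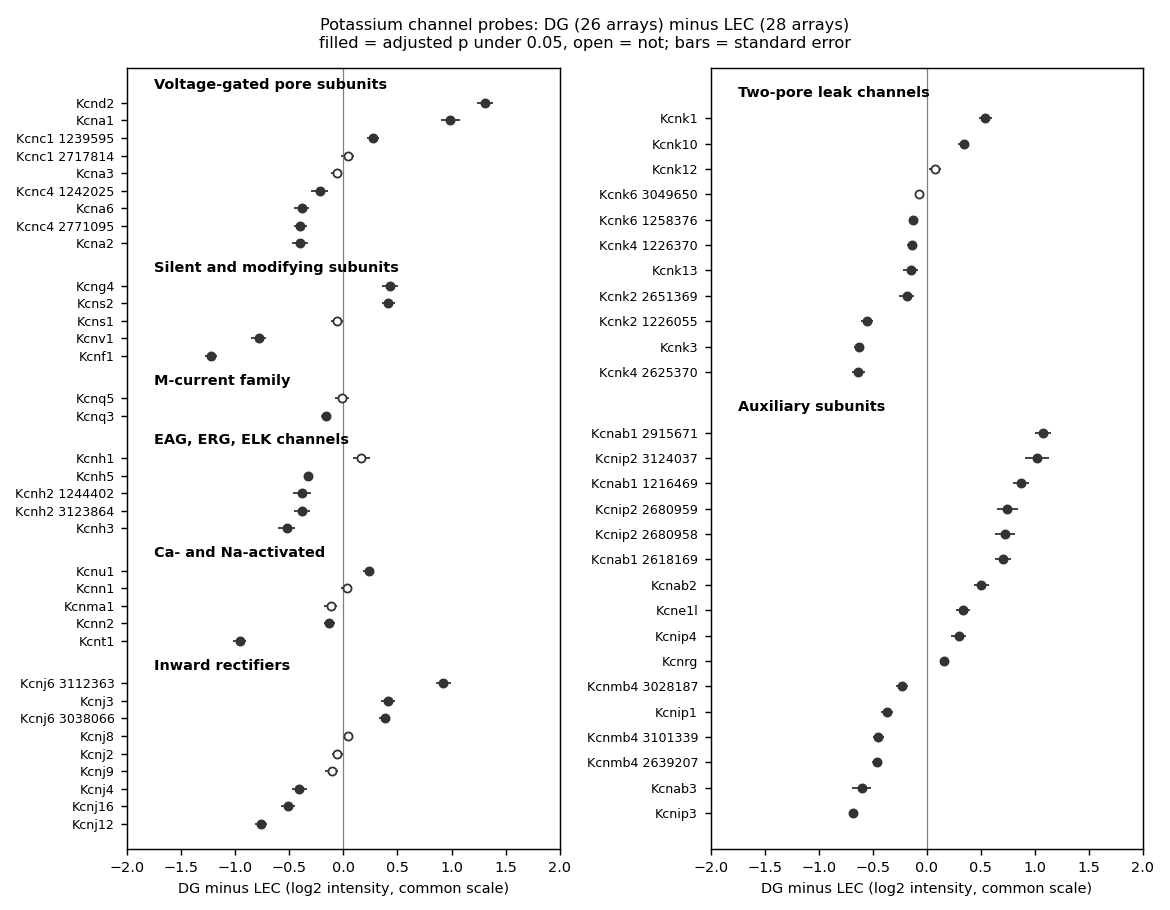
Difference between DG (26 arrays) and LEC (28 arrays) for each of the 62 potassium channel probes, in log2 intensity on the common scale, grouped by role; points to the right are higher in the DG, filled points passed an adjusted p under 0.05 and bars are the standard error, with probes near the detection limit, such as Kcnt1 and Kcnh5, drawn at their fitted differences. Kcnd2 (1.31) and Kcnf1 (-1.23) lie at the 2 ends.

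Among voltage-gated pore subunits 3 probes were higher, 4 lower and 2 not called. Kcnd2 lay between 9.29 and 10.70 in the DG (median 9.97, n = 26 arrays), against 7.39 to 9.73 in the LEC (median 8.75, n = 28). The ranges overlapped, but the DG was higher in 21 of 21 mice with both regions, and the difference was 1.31 (SE 0.08, 2.48-fold, adjusted p = 1.14e-18). Kcna1, a Shaker pore that opens at low thresholds in axons, ranged from 7.28 to 9.0 in the DG (median 8.32) and from 6.54 to 8.15 in the LEC (median 7.26), a difference of 0.99 (SE 0.09, adjusted p = 3.87e-13), with 20 of 21 mice higher in the DG. Its relatives ran the other way: Kcna2 differed by -0.41 and Kcna6 by -0.39. Kcna3 differed by -0.06 (adjusted p = 0.263). Kcnc4, a Shaw pore for fast repolarization, was lower in the DG on both probes (-0.40 and -0.22). The probes of Kcnc1, the Shaw pore typical of fast-spiking neurons, disagreed: ILMN_1239595, detected on 19 DG and 7 LEC arrays, was at least 1.05-fold higher in the DG, while ILMN_2717814, detected on every array, differed by 0.04 (adjusted p = 0.563). Here and below, "at least" sets a probe that was undetected on most or all arrays of its dimmer side against the lowest detected signal of each such array. An adjusted p beside such a bound tests the fitted difference, not the bound.

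Silent subunits form no channel of their own and modify Shab pores. Kcnf1 gave the smallest p of all members: it lay between 8.99 and 10.00 in the DG (median 9.40), against 10.19 to 11.02 in the LEC (median 10.63). No DG array reached the lowest LEC array, and the difference was -1.23 (SE 0.06, 2.34-fold lower in the DG, adjusted p = 9.16e-23). Kcnv1 ranged from 7.69 to 8.92 in the DG (median 8.37) and from 8.75 to 9.66 in the LEC (median 9.12), with 0 of 21 mice higher in the DG and a difference of -0.79 (SE 0.06, 1.72-fold lower, adjusted p = 3.85e-14). Kcns2 was higher in the DG by 0.42, Kcng4, detected on 20 DG and 6 LEC arrays, was at least 1.09-fold higher, and Kcns1 differed by -0.06 (adjusted p = 0.346). Of the Kcnh family, which holds EAG, ERG and ELK channels, Kcnh3 (-0.53) and both Kcnh2 probes (-0.39 and -0.38) were lower in the DG. Kcnh5 was called as lower, but it was detected on no DG array and only 6 LEC arrays, and no difference in level can be given for it. Kcnh1 itself differed by 0.17 (adjusted p = 0.0655). In the M-current family, which damps repetitive firing, Kcnq3 was lower in the DG (-0.16) and Kcnq5 differed by -0.01 (adjusted p = 0.876).

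Among channels opened by ions, Kcnt1, the pore of a sodium-activated channel, passed the detection rule only in the LEC. It lay between 5.84 and 6.58 in the DG (median 6.16), where it was detected on 3 of 26 arrays, against 6.72 to 7.60 in the LEC (median 7.08), where it was detected on 28 of 28. The ranges did not overlap, and Kcnt1 was at least 1.59-fold lower in the DG (adjusted p = 4.76e-18 for the fitted difference). As the rule admitted Kcnt1 through the LEC, where it is higher, this is no independent support for a regional difference. The calcium-activated pores showed little: Kcnma1 differed by -0.12 (adjusted p = 0.0762) and Kcnn1 by 0.03 (adjusted p = 0.596). Kcnn2 was called as lower by 0.13 (adjusted p = 0.0265), but it was detected on only 11 of 26 DG and 12 of 28 LEC arrays. Its difference is therefore between values mostly below the detection limit. Kcnu1, known from sperm, was higher in the DG by 0.23.

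Of 9 inward rectifier probes 3 were higher in the DG, 3 lower and 3 not called. Kcnj6 and Kcnj3, G protein-gated pores that carry the slow inhibition evoked by transmitters, were higher. Kcnj6 probe ILMN_3112363 ranged from 7.08 to 8.49 in the DG (median 7.53) and from 6.46 to 7.10 in the LEC (median 6.73), with 21 of 21 mice higher in the DG and a difference of 0.92 (SE 0.07, 1.90-fold, adjusted p = 3.74e-15). Its second probe, ILMN_3038066, detected on 18 DG arrays and 1 LEC array, was at least 1.06-fold higher, and Kcnj3 was higher by 0.41. Kcnj9, another G protein-gated pore, differed by -0.11 (adjusted p = 0.112). The strong rectifier Kcnj12 ran lower, with 6.03 to 6.92 in the DG (median 6.27, detected on 6 of 26 arrays) and 6.68 to 7.42 in the LEC (median 7.13, detected on 28 of 28), and was at least 1.499-fold lower in the DG (adjusted p = 8e-16). Kcnj16 (-0.51) and Kcnj4 (-0.41) were also lower in the DG, while Kcnj2 differed by -0.06 (adjusted p = 0.308) and Kcnj8, the pore of vascular ATP-sensitive channels, by 0.04 (adjusted p = 0.26).

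For the 2-pore-domain leak channels, 7 of 11 probes were lower in the DG and 2 were higher. Kcnk1 was the main exception, lying between 10.86 and 11.73 in the DG (median 11.28) and between 10.39 and 11.46 in the LEC (median 10.68). The ranges overlapped, with 20 of 21 mice higher in the DG and a difference of 0.54 (SE 0.06, 1.45-fold, adjusted p = 1.96e-10). Kcnk10, of the mechano- and lipid-sensitive group, was higher by 0.34, whereas its relatives Kcnk2 (-0.55 and -0.19) and Kcnk4 were lower on both probes. Kcnk4 differed by -0.63 on ILMN_2625370 and was at least 1.02-fold lower on ILMN_1226370, detected on 9 DG and 18 LEC arrays. Kcnk3, an acid-sensitive leak channel, was detected on 1 of 26 DG arrays and on 25 of 28 LEC arrays, and was at least 1.18-fold lower in the DG (adjusted p = 2.55e-15). Kcnk13 was lower by 0.15 (adjusted p = 0.048). One Kcnk6 probe, ILMN_1258376, was lower in the DG by 0.12 (adjusted p = 0.00844), and the other, ILMN_3049650, differed by -0.07 (adjusted p = 0.0724). Kcnk12 differed by 0.08 (adjusted p = 0.239).

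All 16 probes of auxiliary subunits were called, 10 higher and 6 lower in the DG. Kcnab1, a cytoplasmic beta subunit that speeds inactivation of Shaker pores, was higher on its 3 probes, by 1.08 (SE 0.08, 2.11-fold, adjusted p = 5.3e-16), 0.88 and 0.71. Kcnip2, a calcium-binding partner of Kcnd2, was also higher on all 3 of its probes. Its probe ILMN_3124037 ranged from 8.10 to 10.04 in the DG (median 8.87), against 5.97 to 8.55 in the LEC (median 7.96), a difference of 1.02 (SE 0.11, 2.03-fold, adjusted p = 8.55e-11), and the others differed by 0.75 and 0.72. Kcnip3, a Kcnip member known also as a transcriptional repressor, went the opposite way: it lay between 9.04 and 9.79 in the DG (median 9.39) and between 9.87 and 10.51 in the LEC (median 10.05), with no overlap and a difference of -0.68 (SE 0.04, 1.6-fold lower, adjusted p = 1.25e-17). Kcnip1 was lower (-0.37) and Kcnip4 higher (0.30). Of the other beta subunits Kcnab2 was higher (0.51) and Kcnab3 lower (-0.60), and Kcnmb4, the neuronal beta subunit of the large-conductance calcium-activated channel, was lower on 3 of 3 probes (-0.46, -0.45 and -0.23). Kcne1l was higher (0.34). Kcnrg, a regulator of channel assembly, was called as higher, but it was detected on 9 DG arrays and no LEC array, and no difference in level can be given for it. Of 10 genes with more than 1 member probe, 8 had all probes called in the same direction, Kcnc1 and Kcnk6 being the exceptions. The matching share over all genes was not counted, and 68.8% of all probes were called in this fit.

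Sedentary controls of day 28 and of day 7 were compared next. Here day, age and cohort cannot be told apart. In the LEC, Kcnd2, Kcnh1, Kcna1 and Kcnk1 were lower at day 28. In all, 11 of 56 probes were called in the LEC, 2 higher and 9 lower, in a comparison in which 15.5% of all 12233 probes were called (7.04% higher and 8.49% lower). Levels from here on are log2 intensities on the scale of each region's own fit. Kcnd2 measured 7.92, 7.95, 7.27 and 8.02 in CTR28, against 9.54, 9.53 and 9.23 in CTR7. The groups were far apart, and the difference was -1.64 (SE 0.19, 3.12-fold lower, adjusted p = 8.25e-06). Its means ± SD were 9.43 ± 0.18 in CTR7 (n = 3), 8.86 ± 0.03 in CTR14a (n = 3), 8.46 ± 0.11 in CTR14b (n = 3) and 7.79 ± 0.35 in CTR28 (n = 4). Kcnh1, the founding EAG channel, measured 9.38, 9.22, 9.52 and 9.42 in CTR28, against 10.41, 10.94 and 10.25 in CTR7, a difference of -1.15 (SE 0.20, 2.22-fold lower, adjusted p = 0.000569). Its 14-day sets again lay between, with means of 10.01 in CTR14a and 9.74 in CTR14b.

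Kcna1 had 7.15, 6.99, 6.68 and 6.62 in LEC CTR28, against 7.97, 7.57 and 7.83 in CTR7, with no overlap and a difference of -0.93 (SE 0.21, 1.91-fold lower, adjusted p = 0.00357). For Kcnk1 the values were 10.45, 10.36, 10.24 and 10.46 in CTR28 and 11.04, 11.22 and 10.65 in CTR7 (difference -0.59, SE 0.12, adjusted p = 0.00136). Every CTR28 array was below every CTR7 array for both genes. Smaller falls were called for Kcnu1 (-0.60), Kcnn1 (-0.52), a small-conductance calcium-activated pore, Kcnv1 (-0.49) and Kcnj12 (-0.47), all without overlap. Kcnh5, counted among the lower calls, was detected on 0 of 4 CTR28 arrays and on 3 of 3 CTR7 arrays. It was at least 1.19-fold lower in CTR28 (adjusted p = 0.00234 for the fitted difference), the bound being the lowest detected signal on each CTR28 array. In the LEC it passed the detection rule through CTR7 alone, the group where it is high, so this call is no independent support for a fall. Kcnf1 rose, with 10.58, 10.69, 10.79 and 10.71 in CTR28 against 10.20, 10.35 and 10.48 in CTR7 (difference 0.35, SE 0.11, adjusted p = 0.0282). Kcne1l rose by 0.46 with overlapping groups (adjusted p = 0.0495).

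The LEC result leaned on CTR7 replicate 1: without it 5 probes were called, and Kcnu1, Kcnn1, Kcnv1, Kcnj12, Kcnf1 and Kcne1l were not, while without CTR7 replicate 3 the count was 15. Between these groups 2 of 10 marker lists had array means that did not overlap, as many as between LEC CTR14b and CTR14a. Oligodendrocyte means were 10.18 to 10.26 in CTR28 and 10.43 to 10.92 in CTR7 (4 of 13 probes lower and 1 higher). Interneuron means were 11.16 to 11.26 in CTR28 and 11.34 to 11.72 in CTR7 (3 of 7 lower). The means of the other 8 marker lists overlapped, among them those for cortical layers, of which 3 of 7 probes were lower (7.85 to 8.49 in CTR28 and 8.37 to 8.90 in CTR7). The part of these markers was not tested.

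**Figure D2:**
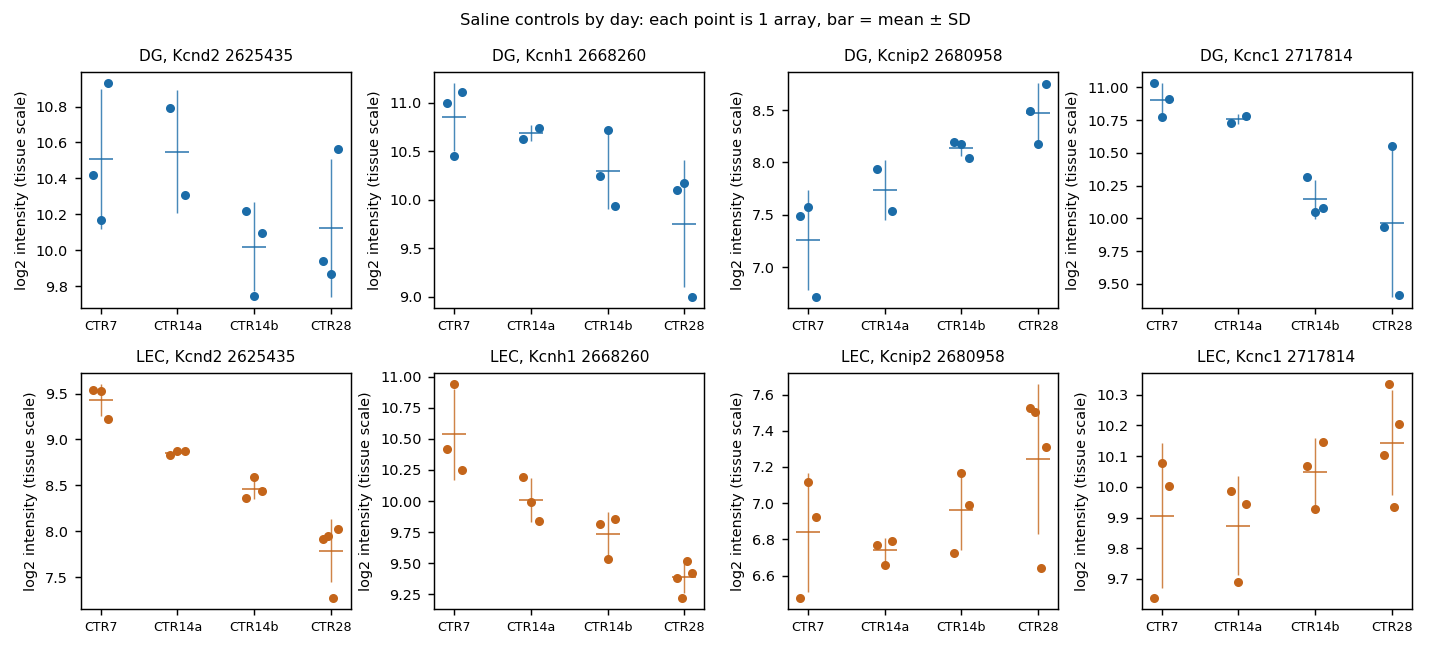
Log2 intensity (scale of each region) of Kcnd2, Kcnh1, Kcnip2 (ILMN_2680958) and Kcnc1 (ILMN_2717814) in the sedentary controls CTR7, CTR14a, CTR14b and CTR28. DG is above and LEC below, each point is 1 array and bars are the mean ± SD. In the LEC the Kcnd2 means run 9.43, 8.86, 8.46 and 7.79, and each panel has its own axis range.

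In the DG the same comparison gave 7 called probes of 56, 4 higher and 3 lower, where 14.7% of all 12658 probes were called (7.5% higher and 7.19% lower). Kcnip2 was higher in CTR28 on all 3 probes. Probe ILMN_2680958 measured 8.49, 8.18 and 8.75 in CTR28, against 7.49, 7.57 and 6.72 in CTR7, a difference of 1.21 (SE 0.21, 2.32-fold, adjusted p = 0.00102). Probe ILMN_2680959 measured 8.41, 8.51 and 8.96 in CTR28, against 7.68, 7.71 and 6.62 in CTR7 (difference 1.29, SE 0.26, adjusted p = 0.0027). Probe ILMN_3124037 measured 9.55, 9.36 and 10.25 in CTR28, against 8.83, 8.96 and 8.25 in CTR7 (difference 1.04, SE 0.22, adjusted p = 0.00409). CTR7 replicate 3 was lowest for all 3 probes, and no group overlapped. Kcnk2, a leak channel gated by stretch and lipids, was higher in CTR28 on the probe ILMN_2651369, with 6.98, 6.71 and 6.94 in CTR28 and 6.40, 6.47 and 6.05 in CTR7. That probe was detected on 0 of 3 CTR7 arrays and was at least 1.26-fold higher in CTR28 (adjusted p = 0.0219), and the gene's other probe, ILMN_1226055, differed by -0.08 (adjusted p = 0.836).

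In the DG 3 pore transcripts were lower at day 28, Kcnh1, Kcnc1 and Kcnj6, with Kcnc1 and Kcnj6 each called on a single probe. The other Kcnc1 probe, ILMN_1239595, differed by 0.11 (adjusted p = 0.684). The other Kcnj6 probe, ILMN_3038066, differed by -0.48 (adjusted p = 0.0687). Kcnh1 measured 10.10, 10.17 and 8.99 in CTR28, against 10.996, 10.449 and 11.114 in CTR7 (difference -1.10, SE 0.24, 2.14-fold lower, adjusted p = 0.00439). Kcnc1 probe ILMN_2717814 measured 9.94, 10.55 and 9.42 in CTR28, against 11.03, 10.77 and 10.91 in CTR7 (difference -0.94, SE 0.20, 1.91-fold lower, adjusted p = 0.00405). Kcnj6 probe ILMN_3112363 measured 7.48, 7.64 and 7.38 in CTR28, against 8.54, 7.96 and 8.64 in CTR7 (difference -0.88, SE 0.27, adjusted p = 0.0286). CTR28 replicate 3 was lowest for each of these, without any overlap between groups. Its granule neuron marker mean was also the lowest of these 6 arrays, 9.48, against 10.25 and 10.46 in the other CTR28 arrays and 10.45 to 11.26 in CTR7, and 1 of 3 granule probes was lower in CTR28. The same array had the highest CA pyramidal (10.25, others 8.66 to 9.87) and oligodendrocyte means (10.79, others 9.57 to 10.41) of the 6. Its interneuron (11.44, others 10.48 to 11.06) and astrocyte means (9.843, others 9.263 to 9.61) were the highest too. Of 10 marker lists, 3 had array means that did not overlap between these groups, and 2 did not between DG CTR14b and CTR14a. The cortical layer means were 8.09 to 8.21 in CTR28 and 7.35 to 7.83 in CTR7 (2 of 7 probes higher), the interneuron means 10.90 to 11.44 in CTR28 and 10.48 to 10.89 in CTR7 (0 of 7 called) and the striatal means 7.42 to 7.57 in CTR28 and 7.31 to 7.38 in CTR7 (1 of 7 lower). The part of these markers in the result was not tested. A fit on these 6 arrays alone called 0 of the 7 probes (adjusted p = 0.0717 to 0.15), and both Kcnj6 and Kcnk2 were lost without CTR7 replicate 3, CTR28 replicate 1 or CTR28 replicate 3, and Kcnj6 also without CTR7 replicate 1.

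Whether the day difference itself differed between the regions was tested in a contrast chosen after seeing the data. It called 8 of 62 probes, where 14.4% of all probes were called. Kcnd2 had 9.94, 9.87 and 10.56 in DG CTR28, against 10.42, 10.17 and 10.93 in DG CTR7, overlapping groups with a difference of -0.38 (adjusted p = 0.264), and the contrast with the LEC was 1.32 (adjusted p = 0.00496). Kcnc1 probe ILMN_2717814 fell in the DG and differed by 0.24 in the LEC (adjusted p = 0.172), a contrast of -1.16 (adjusted p = 0.00103). Kcna1 (1.29) and Kcnn1 (0.78) were called too, with DG differences of 0.35 and 0.24 that missed the threshold. The contrast for the second Kcnc1 probe was 0.71, but that probe was detected on few LEC arrays. Kcnj12 (0.68), Kcnh5 (0.58) and Kcnk3 (0.55) were called as well and were detected on few or no DG arrays. Kcnh1, lower at day 28 in both regions, gave a contrast of 0.11 (adjusted p = 0.847). The contrast for Kcnip2 was 0.95, 0.74 and 0.48 on its 3 probes (adjusted p = 0.105 to 0.502). Kcnd2, Kcnn1 and Kcnc1 probe ILMN_2717814 were called under every setting run. The count was 4 without LEC CTR7 replicate 1, 5 without LEC CTR28 replicate 4 and 12 without DG CTR7 replicate 2.

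Treatments were then set against the sedentary controls of their own time and set. In the DG, Kcnip2 was higher and Kcnab2 lower after 7 days of running, 3 of 56 probes, where 7.46% of all probes were called. Kcnip2 probe ILMN_2680958 measured 7.66, 8.40 and 7.91 in RUN7, against 7.49, 7.57 and 6.72 in CTR7 (difference 0.73, SE 0.21, 1.66-fold, adjusted p = 0.0363). Probe ILMN_2680959 measured 8.03, 8.63 and 7.90 in RUN7, against 7.68, 7.71 and 6.62 in CTR7 (difference 0.85, SE 0.26, adjusted p = 0.0443). The other probe, ILMN_3124037, had 8.98, 9.40 and 8.92 in RUN7 and 8.83, 8.96 and 8.25 in CTR7, a difference of 0.42 (adjusted p = 0.251), and its groups overlapped whereas those of the first pair did not. Kcnab2, a beta subunit that carries Shaker channels to axons, measured 12.90, 12.98 and 12.80 in RUN7, against 13.54, 13.27 and 14.35 in CTR7 (difference -0.83, SE 0.24, 1.78-fold lower, adjusted p = 0.0405).

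CTR7 replicate 3 was the lowest array for Kcnip2 and the highest for Kcnab2. Without it Kcnip2 differed by 0.46 and 0.49 (adjusted p = 0.28 and 0.327) and Kcnab2 by -0.51 (adjusted p = 0.299), and none of the 3 calls held in a fit on the 6 arrays alone. The count was 6 without CTR7 replicate 2, 1 without RUN7 replicate 2 and 0 without RUN7 replicate 1 or 3. Of 10 marker lists, 4 had array means that did not overlap, and 2 did not between DG CTR14b and CTR14a. Granule neuron means were 10.30 to 10.41 in RUN7 and 10.45 to 11.26 in CTR7 (0 of 3 probes called), and cortical layer means 7.84 to 8.10 in RUN7 and 7.35 to 7.83 in CTR7 (2 of 7 higher). Choroid plexus means were 7.09 to 7.46 in RUN7 and 6.57 to 6.79 in CTR7 (0 of 4 called), and striatal means 7.44 to 7.56 in RUN7 and 7.31 to 7.38 in CTR7 (0 of 7 called). The part of these markers was not tested.

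**Figure D3:**
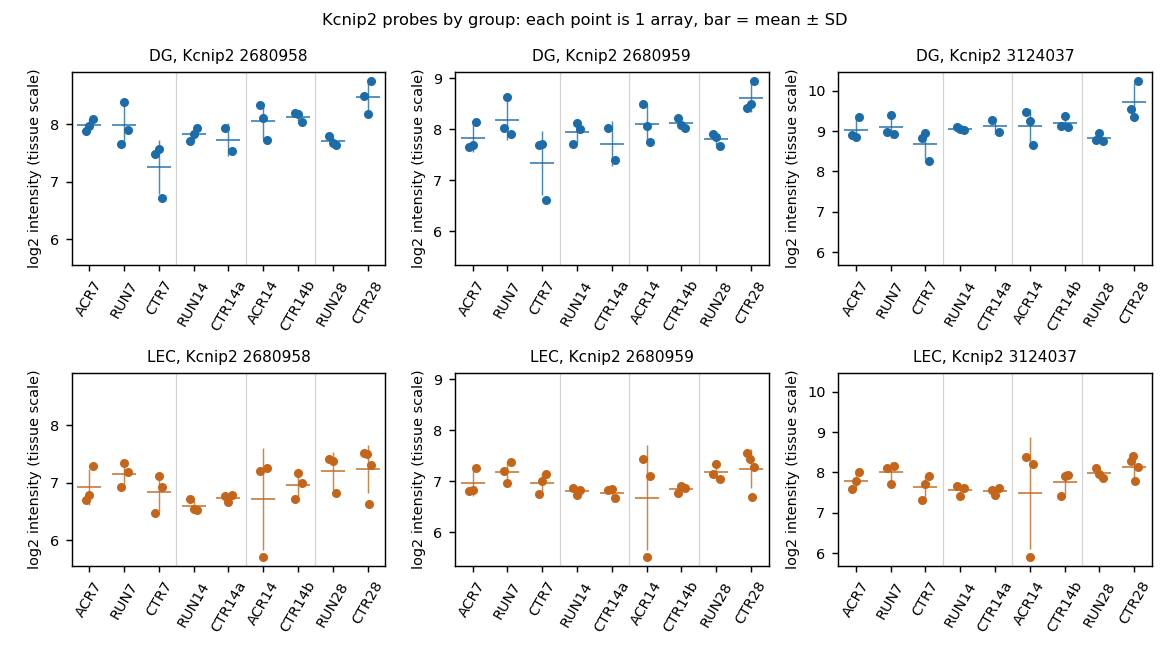
Log2 intensity (scale of each region) of the 3 Kcnip2 probes in all 9 groups, DG above and LEC below; each point is 1 array, bars are the mean ± SD and grey lines part the sets of treated and control groups. In the DG, CTR7 is low and CTR28 high against the other groups, and in the LEC 1 ACR14 array lies at 5.70, 5.50 and 5.89.

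After 28 days of running the Kcnip2 values in the DG lay on the other side of their controls. Probe ILMN_3124037 measured 8.79, 8.95 and 8.76 in RUN28, against 9.55, 9.36 and 10.25 in CTR28 (difference -0.89, adjusted p = 0.0879), and probe ILMN_2680958 measured 7.80, 7.67 and 7.64 in RUN28, against 8.49, 8.18 and 8.75 in CTR28 (difference -0.77, adjusted p = 0.103). The groups did not overlap for either probe, yet neither passed. By limma 0 of 56 members were called, where 0.332% of all probes were, and 7 had an unadjusted p under 0.05, where 13.3% of all probes did. Kcnip2 probe ILMN_2680959 differed by -0.81 (adjusted p = 0.157). Here the array means of cortical layer markers (7.55 to 7.90 in RUN28 and 8.09 to 8.21 in CTR28) and choroid plexus markers (7.93 to 8.63 in RUN28 and 6.55 to 7.57 in CTR28) did not overlap, with 0 of their probes called, and their part was not tested. As many lists, 2 of 10, separated DG CTR14b from CTR14a.

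For AICAR at 7 days, 0 of 56 DG probes were called by limma, where 0.0079% of all probes were, and 10 had an unadjusted p under 0.05, as did 16.1% of all probes. The smallest p-values belonged to Kcnip4 (0.90, adjusted p = 0.0971), Kcnk6 probe ILMN_1258376 (0.44, adjusted p = 0.0998) and Kcnip2 probe ILMN_2680958 (0.72, adjusted p = 0.102). Of 10 marker lists, 3 had array means that did not overlap between DG ACR7 and CTR7, and 2 did not between DG CTR14b and CTR14a. The choroid plexus mean was 11.19 on ACR7 replicate 2, against 6.92 and 7.485 on the other ACR7 arrays. The part of these markers was not tested. ACR7 and RUN7 share CTR7, so their differences are not independent. Set directly against each other, ACR7 and RUN7 gave 0 called probes in the DG (0% of all probes), with an unadjusted p under 0.05 for 2 members and for 7.84% of all probes. At the smallest p stood differences of 0.34 for Kcnk6, 0.51 for Kcnd2 and 0.51 for Kcnj6.

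At 14 days no member was called in either region, and the share of all probes called was 0% for all 4 comparisons. Choroid plexus marker means were 11.13 on DG ACR14 replicate 3 (other ACR14 arrays 6.86 and 7.49) and 12.43 on DG CTR14b replicate 5 (other CTR14b arrays 7.23 and 8.32). ACR14 replicate 3 also had the lowest granule neuron mean of the DG arrays (8.858). The part of these markers was not tested. In the DG an unadjusted p under 0.05 was reached by 1 member (6.58% of all probes) for RUN14 and by 2 members (3.93%) for ACR14. In the LEC it was reached by 2 members (8.54%) for RUN14 and by 6 members (13.8%) for ACR14. In the DG the smallest p-values were those of Kcnc1 probe ILMN_1239595 (-0.43), Kcna1 (-0.58) and Kcnf1 (-0.41) for RUN14, and of Kcnip3 (0.38), Kcna3 (0.38) and Kcnc4 (0.43) for ACR14. In the LEC they were those of Kcnj6 (-0.31), Kcnf1 (-0.26) and Kcnk4 (0.31) for RUN14, and of Kcnip3 (0.34), Kcnip1 (0.35) and Kcnk12 (-0.48) for ACR14. The 2 control sets of day 14 gave no call between them either: CTR14b against CTR14a differed by -0.52 for Kcnc1 probe ILMN_1239595, 0.47 for Kcnmb4 and -0.61 for Kcnc1 probe ILMN_2717814 in the DG, and by -0.41 for Kcnk1 in the LEC. Of all probes 0.0474% were called in the DG and 0.0163% in the LEC, and an unadjusted p under 0.05 was reached in the DG by 11 members (18.1% of all probes) and in the LEC by 3 members (7.69%).

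**Figure D4:**
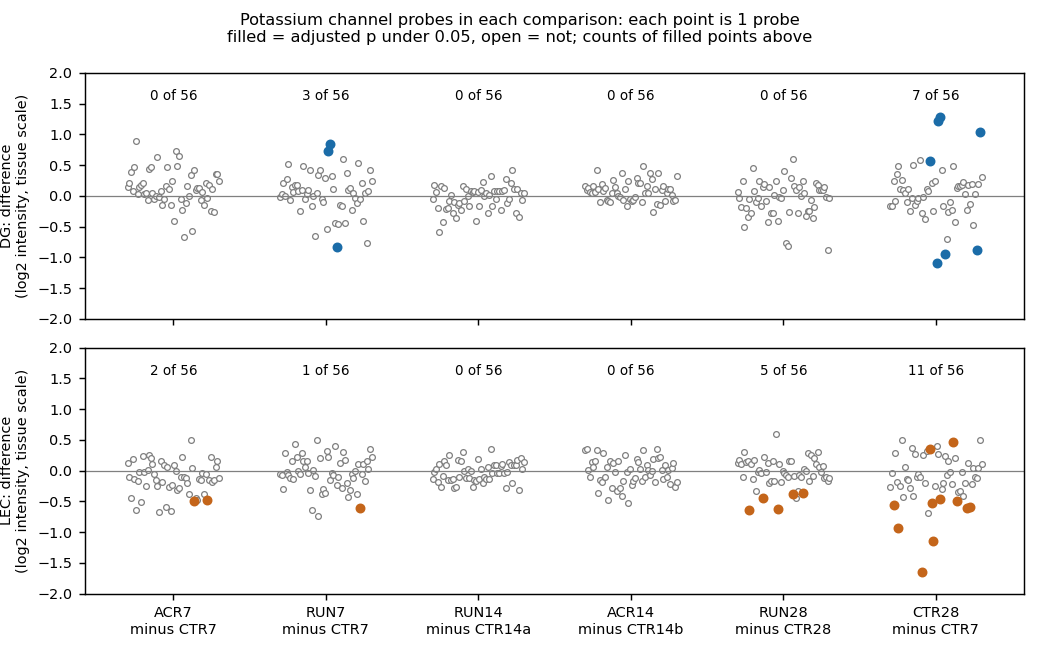
Difference of each potassium channel probe (log2 intensity, scale of each region) in 6 comparisons, DG above and LEC below; each point is 1 of 56 probes, filled where the adjusted p was under 0.05, spread sideways only for legibility. Filled points number 0, 3, 0, 0, 0 and 7 in the DG and 2, 1, 0, 0, 5 and 11 in the LEC.

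In the LEC, Kcnk1 was lower after both 7-day treatments. It measured 10.48, 10.28 and 10.33 in RUN7, against 11.04, 11.22 and 10.65 in CTR7, with no overlap (difference -0.60, SE 0.12, 1.52-fold lower, adjusted p = 0.0301). This was the only member called for RUN7, where 0.515% of all probes were called, 0.139% lower. In ACR7 it measured 10.40, 10.39 and 10.67, against the same CTR7 arrays, and overlapped with them (difference -0.48, adjusted p = 0.0495). Kcnv1 was also lower in ACR7, at 8.72, 8.86 and 8.77, against 9.47, 9.26 and 9.10 in CTR7, with no overlap (difference -0.49, adjusted p = 0.0397). These were the 2 members called for ACR7, where 1.31% of all probes were called, 0.605% lower. The sedentary CTR28 arrays lay about as low as the treated ones. Kcnk1 means were 10.36 in RUN7, 10.48 in ACR7 and 10.38 in CTR28, against 10.97 in CTR7. Kcnv1 means were 8.78 in ACR7 and 8.79 in CTR28, against 9.28 in CTR7. The part of a high CTR7 group in these calls was not tested. All 3 calls rest on the same 3 control arrays, and none held in a fit on the arrays compared, without CTR7 replicate 1 or 2, or without 1 of a pair of treated arrays (ACR7 replicates 1 and 2, RUN7 replicates 2 and 3). Without CTR7 replicate 3 the counts were 5 for ACR7 and 2 for RUN7, without ACR7 replicate 3 it was 1 for ACR7 and without RUN7 replicate 1 it was 3 for RUN7.

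Marker means were compared between these 7-day LEC groups too. Of 10 lists, 2 had array means that did not overlap between ACR7 and CTR7, as many as between the control sets LEC CTR14b and CTR14a. Astrocyte means were 9.34 to 9.39 in ACR7 and 9.41 to 9.63 in CTR7 (0 of 11 probes called). Endothelial and pericyte means were 7.39 to 7.55 in ACR7 and 7.62 to 8.01 in CTR7 (1 of 6 lower). For RUN7 5 lists did not overlap with CTR7. Astrocyte means were 9.21 to 9.40 in RUN7 and 9.41 to 9.63 in CTR7, interneuron means 11.23 to 11.28 in RUN7 and 11.34 to 11.72 in CTR7, oligodendrocyte means 10.07 to 10.40 in RUN7 and 10.43 to 10.92 in CTR7, and microglia means 7.92 to 7.99 in RUN7 and 8.04 to 8.19 in CTR7, with 0 probes called in these 4 lists. Endothelial and pericyte means were 8.12 to 8.27 in RUN7 and 7.62 to 8.01 in CTR7 (1 of 6 higher). The part of these markers was not tested. ACR7 against RUN7 gave 0 called members in the LEC (0.0736% of all probes), with an unadjusted p under 0.05 for 3 members and 5.43% of all probes, and differences of -0.31 for Kcnj6, -0.56 for Kcna1 and -0.29 for Kcnv1 at the smallest p.

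After 28 days of running 5 of 56 probes were lower in the LEC, where 13.7% of all probes were called and 7.32% were lower. Kcnf1 measured 10.25, 9.98 and 10.00 in RUN28, against 10.58, 10.69, 10.79 and 10.71 in CTR28. The groups did not overlap, and the difference was -0.62 (SE 0.11, 1.53-fold lower, adjusted p = 0.00141), a call kept under every setting run. The remaining calls were Shaw pores and an inward rectifier. Kcnc4 was lower on both probes: ILMN_1242025 measured 8.27, 8.38 and 8.13 in RUN28, against 8.98, 9.25, 8.36 and 8.99 in CTR28 (difference -0.64, adjusted p = 0.022), where CTR28 replicate 3 overlapped with the runners, and ILMN_2771095 measured 11.74, 11.63 and 11.40 in RUN28, against 11.99, 11.91, 11.95 and 11.98 in CTR28 (difference -0.37, adjusted p = 0.0357). Kcnc1 probe ILMN_2717814 measured 9.91, 9.68 and 9.69 in RUN28, against 10.10, 10.34, 9.93 and 10.20 in CTR28 (difference -0.39, adjusted p = 0.0319). Kcnj16, an inward rectifier known from glia and epithelia, measured 7.28, 7.17 and 7.22 in RUN28, against 7.46, 7.72, 7.72 and 7.74 in CTR28 (difference -0.44, adjusted p = 0.0315). Groups did not overlap for these last 3 probes.

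Leaving out single arrays of this comparison left 1 to 5 members called, with 1 call remaining without CTR28 replicate 2, CTR28 replicate 4 or RUN28 replicate 3, and 2 without CTR28 replicate 1 or RUN28 replicate 2. Oligodendrocyte markers were higher on 3 of 13 probes and lower on 1, with array means of 10.54 to 11.08 in RUN28 and 10.18 to 10.26 in CTR28. Between LEC CTR14b and CTR14a 2 of the 10 marker lists separated, and here another 3 had means that did not overlap. They were interneuron markers (11.49 to 11.96 in RUN28 and 11.16 to 11.26 in CTR28, 1 of 7 probes higher), astrocyte markers (9.354 to 9.372 in RUN28 and 9.378 to 9.712 in CTR28, 0 of 11 called) and endothelial and pericyte markers (7.77 to 7.78 in RUN28 and 7.88 to 8.09 in CTR28, 1 of 6 lower). The part of these markers was not tested.

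**Figure D5:**
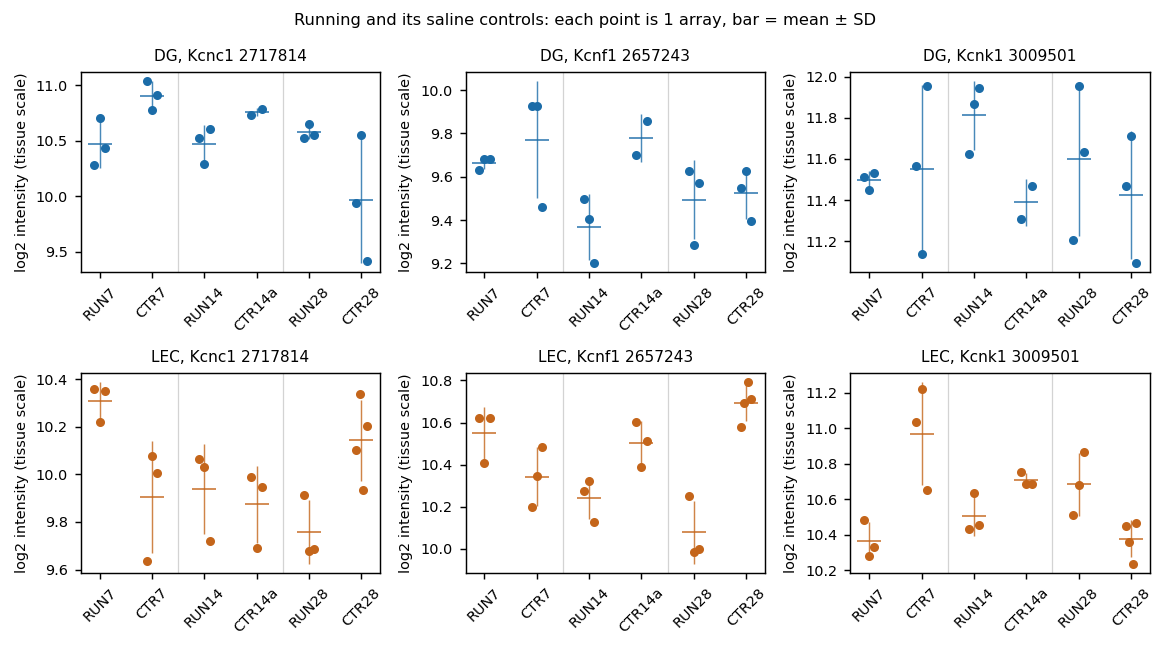
Log2 intensity (scale of each region) of Kcnc1 (ILMN_2717814), Kcnf1 and Kcnk1 in running groups and their sedentary controls, DG above and LEC below. Each point is 1 array, bars are the mean ± SD and grey lines part the times. In the LEC, Kcnf1 in RUN28 (9.98 to 10.25) lies below CTR28 (10.58 to 10.79), and each panel has its own axis range.

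Kcnc1 was the one member whose response to running was called as different between the regions, on probe ILMN_2717814 only. At 7 days its probe ILMN_2717814 measured 10.28, 10.70 and 10.43 in DG RUN7, against 11.03, 10.77 and 10.91 in DG CTR7 (difference -0.44, adjusted p = 0.18), and 10.36, 10.22 and 10.35 in LEC RUN7, against 9.64, 10.08 and 10.00 in LEC CTR7 (difference 0.40, adjusted p = 0.121). Runners were below every control in the DG and above every control in the LEC. The contrast of the 2 effects was -0.85 (SE 0.24, adjusted p = 0.0433), where 2.56% of all probes were called. At 28 days the signs were turned: the probe measured 10.53, 10.64 and 10.55 in DG RUN28, against 9.94, 10.55 and 9.42 in DG CTR28 (difference 0.61, adjusted p = 0.184), next to -0.39 in the LEC, a contrast of 0.99 (SE 0.23, adjusted p = 0.0106) where 3.96% of all probes were called. The DG groups overlapped by 1 control array, and without DG CTR28 replicate 3 the contrast was 0.72 (adjusted p = 0.0603). The second probe, ILMN_1239595, had contrasts of the other sign, 0.20 at 7 days (adjusted p = 0.677) and -0.64 at 28 days (adjusted p = 0.0912). In the DG it measured 6.469, 6.497 and 6.344 in RUN28, where it was detected on 0 of 3 arrays, against 6.66, 6.90 and 6.75 in CTR28, where it was detected on 3 of 3 (adjusted p = 0.361). The 7-day contrast of ILMN_2717814 lost its call when any 1 of 8 arrays was left out (DG CTR7 replicates 1 and 3, DG RUN7 replicates 1 and 3, LEC CTR7 replicate 1 and all 3 LEC RUN7 arrays).

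No member was called for the regional contrast of ACR7 (0.0842% of all probes), of RUN14 or of ACR14 (0% for both). An unadjusted p under 0.05 was reached by 13 members (17.5% of all probes) for ACR7, by 1 member (1.94%) for RUN14 and by 1 member (5.84%) for ACR14. Kcnip4 had the smallest p for ACR7, with a contrast of 1.03 (adjusted p = 0.0797). The effect of 28 days of running on Kcnf1 gave a contrast of 0.61 (adjusted p = 0.105), so that its fall in the LEC was not shown to differ from the DG.

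A single LEC array stood apart for Kcnip2. ACR14 replicate 2 measured 5.70, 5.50 and 5.89 on the 3 probes, none of them detected there, while the lowest of the other 27 LEC arrays measured 6.48, 6.68 and 7.31. The gap was thus 0.78 to 1.42 below any other LEC array, and the DG array of the same mouse measured 8.12, 8.07 and 9.24. Kcna6 (6.27, against 6.74 on the lowest other array) and Kcnj9 (6.04, against 6.55) were likewise undetected in the LEC on that array alone. It had the lowest striatal (7.53) and interneuron (11.01) marker means of the LEC arrays, and the part of this was not tested. With it, Kcnip2 differed between ACR14 and CTR14b by -0.24, -0.17 and -0.26. Without it the 3 differences were 0.27, 0.42 and 0.54 (adjusted p = 0.745, 0.579 and 0.526), so the sign of this comparison rests on 1 array.

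Among 20 genes chosen as partners of potassium channels (scaffolds, adhesion proteins and hyperpolarization-activated channels), 19 probes of 13 genes were measured in the regional fit, 7 higher and 6 lower in the DG, a share close to the 68.8% called among all probes. Dpp10 and Dpp6, transmembrane partners of Kcnd2, differed in opposite directions, by -1.90 and 0.55. Lgi1 (0.71 and 0.67) and its receptor Adam22 (0.85), which bind Shaker channel complexes at the synapse and axon, and Ank3 (0.89), the scaffold of the axon initial segment, were higher in the DG, while Cntnap2 (-0.48), which clusters Shaker channels beside nodes of Ranvier, was lower. Between CTR28 and CTR7 in the DG, 7 of 19 partner probes were lower and 1 higher, where 7.19% of all probes were lower and 7.5% higher. Both Dpp6 probes (-0.98 and -0.44), both Ank3 probes (-0.94 and -0.64), both Lgi1 probes (-0.86 and -0.85) and Adam22 (-0.98) fell, and Cntnap2 rose by 0.50. In the LEC 3 of 18 were lower (Ank3 -0.64, Adam22 -0.48 and -1.29) and 1 higher (Cntnap2 0.53), where 8.49% of all probes were lower and 7.04% higher. In DG RUN7, 3 of these probes were lower, for Dpp6 (-0.55), Lgi1 (-0.64) and Adam22 (-0.86), where 7.46% of all probes were called in either direction. The RUN7 and CTR28 differences share CTR7.

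Of 8 voltage-gated sodium channel genes, 6 probes of 5 genes were measured. Scn1a, the sodium channel of fast-spiking interneurons, differed by -2.77 between LEC CTR28 and CTR7 (adjusted p = 2.61e-06), beside the fall of Kcnd2, and the regional contrast of the day difference was 2.63. In the DG, Scn3b was higher in CTR28 by 1.17 and Scn8a differed by -0.68. For the sodium-potassium pump, 3 of 7 probes were lower in the DG than in the LEC (Fxyd7 -1.07, Fxyd6 -0.69 and Atp1b3 -0.17), as were 31.7% of all probes. Of the same list 2 of 7 were higher in LEC CTR28 than in CTR7, as were 7.04% of all probes.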

How the data were processed

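Total RNA from DG and LEC was hybridised to Illumina MouseRef-8 arrays. The authors deposited non-normalized probe intensity values (linear scale), exported with GenomeStudio 1.6.0, and beside them a detection p-value for each probe. The authors also deposited z-scores, made from log2 intensity within each array; these were recomputed here to within 5e-10. Here, following the methods, each array's log2 intensities were turned into z-scores, and these were rescaled by the average array SD (1.855 in DG, 1.748 in LEC, 1.799 for both regions) so that differences read as log2. Probes with a detection p of 0.02 or less on every array of at least 1 group entered each fit. Group means were fitted over all arrays of a region with limma 3.58.1 (lmFit and eBayes, R 4.3.3, two-sided), and comparisons between regions over all 54 arrays with mouse as a random block (consensus correlation -0.062). Adjusted p-values are Benjamini-Hochberg over all probes of the fit, and calls are at 0.05. The analysis was tested on simulated data. Precision is limited by how many arrays each group has.

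The members and gene lists were chosen with earlier results of these data known. Named were all called members of a comparison (at most 15), the 3 members of smallest p where none was called, called members by role for DG against LEC, genes whose probes disagreed, members detected in 1 region and members with an array far from its group. Gene symbols are the platform's; 23978 of 25697 probes had 1 symbol and 1719 had none, and all 62 members matched the RefSeq table. Columns of the deposited table with no values (16) were not used. Alternatives were quantile normalization, neqc, the deposited scores, other detection filters, 1 probe per gene, fits on the arrays compared, other 14-day controls, the replicate number as a block, no mouse block and leaving out each array.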

Additional observations from a re-analysis of the deposited data

Results flagged for a closer look

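In LEC CTR28, the only group of 4 arrays, 7 of 56 members had 1 array farther from the rest than Dixon's criterion allows, where chance would give about 1 in 20 (levels in log2 intensity). The matching count over all probes was not made, so these flags do not set the members apart. Replicate 3 was low for Kcnip4 (7.745, next 8.171), Kcnu1 (6.809, next 7.246), Kcna2 (8.605, next 9.223) and Kcnd2 (7.271, next 7.918), and high for Kcnk12 (6.773, next 6.616). Replicate 1 was low for Kcnj16 (7.457, next 7.72), and replicate 2 was high for Kcns2 (7.916, next 7.551). Replicate 3 also stood apart as a whole array. Before conversion to z-scores its log2 intensities had the lowest SD (1.572) and the lowest mean (6.796) of all arrays. The other CTR28 arrays had SDs of 1.731 to 1.783 and means of 7.058 to 7.132. Replicate 3 had the lowest cortical layer marker mean of the LEC arrays too (7.85). The part of these array properties in the flags was not tested. Over all settings run, replicate 3 left out among them, the LEC difference between CTR28 and CTR7 for Kcnd2 lay between -1.845 and -1.475.

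The effect of running on Kcnc1 probe ILMN_2717814 differed between DG and LEC by a test of the difference itself, with a contrast of -0.8475 at 7 days (adjusted p = 0.0433) and 0.9861 at 28 days (adjusted p = 0.0106).

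The difference between CTR28 and CTR7 was not the same in DG and LEC for 8 probes, in a contrast chosen after seeing the data. The contrasts (DG minus LEC) were -1.161 for Kcnc1 probe ILMN_2717814, 0.7077 for Kcnc1 probe ILMN_1239595, 1.32 for Kcnd2, 0.7753 for Kcnn1, 0.5754 for Kcnh5, 1.29 for Kcna1, 0.6772 for Kcnj12 and 0.5508 for Kcnk3 (adjusted p = 0.00103 to 0.0473). Kcnh5 was detected on no DG array, so its contrast holds no measured DG level, and in the LEC it passed the detection rule through CTR7 alone.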

How the results depend on the processing

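Counts of called members moved most where few were called. For RUN7 against CTR7 in the DG (3 called) the count was 1 with quantile normalization and 0 with neqc, no detection filter, 1 probe per gene, only the arrays compared or the replicate block. For CTR28 against CTR7 in the DG (7) it was 4 with 1 probe per gene and 0 with only the arrays compared. In the LEC, ACR7 (2) gave 0 with no detection filter, only the arrays compared or the replicate block, RUN7 (1) gave 0 with only the arrays compared or the replicate block, RUN28 (5) gave 1 with the replicate block, and ACR14 (0) gave 1 against the other set's controls. The regional contrast of the RUN7 effect (1) gave 0 with neqc and 2 with no mouse block. Replicate numbers did not pair the samples: 9 of 35 correlations of same-numbered arrays exceeded 0.1 (-0.333 to 0.392). With the block, CTR28 against CTR7 gave 8 in the DG and 8 in the LEC, and DG minus LEC gave 47. The block could not be fitted for comparisons with CTR14b, which carries other numbers than ACR14 and CTR14a. The cause of these changes was not tested, except that fits on the arrays compared hold fewer samples.

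Leaving out 1 array at a time gave 0 to 3 called members for ACR7, 0 to 6 for RUN7, 0 to 2 for RUN28 and 5 to 9 for CTR28 against CTR7 in the DG. In the LEC it gave 0 to 5 for ACR7, 0 to 3 for RUN7, 0 to 1 for ACR14, 1 to 5 for RUN28 and 5 to 15 for CTR28 against CTR7. For regional contrasts it gave 0 to 2 for the ACR7 effect, 0 to 3 for the RUN7 effect, 0 to 2 for the RUN28 effect and 4 to 12 for the day difference, and leaving out each replicate number gave 46 to 53 for DG against LEC. Where an arm was left with 1 array, that array is assumed to vary like the others. For single called probes, 683 of 739 values under other settings kept direction and call and 56 kept direction only. With arrays left out, 507 of 619 kept both and 112 kept direction only, and none turned sign. Probes near the detection limit, such as Kcnh5, Kcnrg, Kcnt1, Kcnk3 and Kcnk2 ILMN_2651369, give bounds rather than levels.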
